A study of Homo sapiens with 32 samples.

Results

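Spheroids of EPC2 cells matured for 8 days under interleukin 13 (IL-13), and their transcriptomes were set against the state in which the cytokine was first given. EPC2 is a telomerase-immortalized human esophageal epithelial line, so every library came from 1 cell line. The IL-13 D11 spheroids were taken at day 11 after IL-13 at 20 ng/ml from day 3 onward (6 libraries). The untreated D11 spheroids were taken at day 11 without the cytokine (7 libraries). The D3 spheroids were taken at day 3, before any IL-13 (9 libraries). All of them grew from 40000 cells in a 20 µl drop of Matrigel, a basement membrane gel, in keratinocyte serum-free medium with 0.6 mM calcium chloride. The medium held a ROCK inhibitor up to D3 and none from then on, so IL-13 D11 differs from D3 by 8 days of culture, by the loss of the inhibitor and by IL-13, and untreated D11 differs from D3 by all of these but IL-13. The comparison rests on 15 of the 32 libraries of the series, the 6 with IL-13 and the 9 of D3, and the 7 untreated D11 libraries show maturation without the cytokine. Total RNA was sequenced. The series had 2 independent experiments, each library carries a batch label of 1 or 2, and nothing in the labels says which libraries came from separate cultures, so p-values measure the spread between these libraries, which may be technical.

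The esophagus is lined by a stratified squamous epithelium. Basal cells divide, and cells that leave the basal layer stop cycling, exchange basal keratins for KRT4 and KRT13, and build a cross-linked protein envelope from genes of the epidermal differentiation complex. IL-13 is a type 2 cytokine that signals through a receptor of IL4R and IL13RA1 to the transcription factor STAT6, and it is a main driver of the epithelial changes of eosinophilic esophagitis.

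Expression was deposited as TPM, a share of each library that is scaled to gene length, so the read depth is unknown and counting error could not be given. A change here is a difference in log2(TPM + 1), given with its standard error from limma, a linear model fitted to all genes with batch as a term, and it understates the change of genes near 0. A gene rose or fell only where its p-value, adjusted over the 12221 genes tested, was under 0.05. Where 3 TPM values stand for a group, they are its lowest library, its median and its highest library. In bulk RNA, fewer cells of a type and less RNA per cell cannot be told apart.

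The libraries carried squamous markers. Summed transcripts of 12 squamous identity genes made up 7.14 to 9.69% of the TPM with IL-13, 7.18 to 9.49% untreated and 6.64 to 10.1% at D3. Of the marker genes of other cell types that failed the filter on low values, none exceeded 1.2 TPM in an IL-13 D11 library, and the fibroblast collagens COL1A2 and COL3A1, the endothelial PECAM1 and the intestinal factor CDX2 were listed at 0 in all 3 groups. Of the columnar list 5 of 25 genes were tested, of which 0 rose and 3 fell with IL-13. Of the fibroblast list 2 of 12 were tested and both rose, COL1A1 and POSTN, and of the immune and endothelial list 3 of 20 were tested and all rose, CD68, CD14 and CSF1R, 1 of them when mitochondrially encoded transcripts were left out. Their summed share stayed at or under 0.102% (columnar), 0.0048% (fibroblast) and 0.0559% (immune and endothelial) in every IL-13 library, against at most 0.341%, 0.00304% and 0.0267% at D3. The part of these genes in any result was not tested.

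On a line from the mean D3 profile at 0 to the mean untreated D11 profile at 1, the IL-13 libraries lay at 0.699 to 0.736, other than IL-13 library 1, which lay at 0.946 among the untreated libraries (0.937 to 1.08). The labels place 1 of the 6 IL-13 samples in batch 2, but the column names do not tell which. The D3 libraries lay at -0.193 to 0.178, in 2 clusters that follow the batch labels other than for 2 libraries. D3 library 4, labelled batch 1, lay with those of batch 2, and D3 library 7, labelled batch 2, lay with those of batch 1. Mitochondrially encoded transcripts took a mean of 21.0% of the TPM with IL-13 and 21.9% untreated, against 47.8% at D3. IL-13 library 1 had the lowest share of the IL-13 libraries, 13.2% against 18.7 to 25.6%, and the D3 libraries held 53.1 to 57.1% in one cluster (2, 7, 8 and 9) and 39.1 to 45.8% in the other. The part of these shares in any result was not tested beyond the scalings given with it. The fall from D3 under IL-13 had p = 0.00020 in a two-sided exact permutation test over libraries, the smallest value its 5005 regroupings can give. The difference of IL-13 from untreated D11 was -0.978 percentage points (exact permutation p = 0.696, 1716 regroupings).

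**Figure D1:**
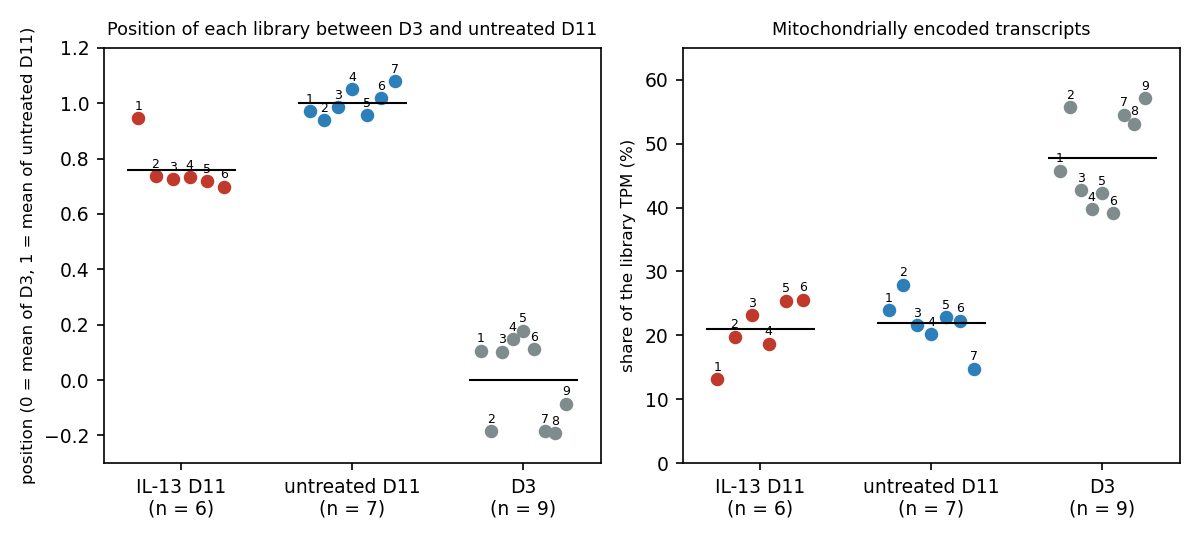
Left, the position of each library between the mean of D3 (0) and the mean of untreated D11 (1) over all genes tested; right, the share of TPM in mitochondrially encoded transcripts in percent. Points are libraries with their column numbers and black lines are group means; IL-13 library 1 stands at 0.946 apart from the other 5 at 0.699 to 0.736, and the D3 libraries form 2 clusters.

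Between D3 and D11 under IL-13, 8063 of 12221 genes changed (66.0%), 5513 of them higher (45.1%) and 2550 lower (20.9%). Untreated D11 against the same D3 libraries had 8472 changed genes (69.3%), 4102 higher (33.6%) and 4370 lower (35.8%). The libraries of IL-13 D11 and D3 did not overlap for 3611 genes (29.5%), those of untreated D11 and D3 for 4648 (38.0%), and those of IL-13 D11 and untreated D11 for 1674 (13.7%). The split of the IL-13 comparison moved with the scaling. After rescaling by median of ratios it was 4295 higher and 3930 lower, after quantile normalization 3719 and 4503, and with mitochondrially encoded transcripts left out 1841 and 6570. The median change over all genes was 0.17 as deposited, 0.02 by median of ratios and -0.33 without mitochondrially encoded transcripts. List counts and medians under another scaling are to be read beside these values for all genes. Genes named below for their class fell in the same class under the deposited, the median-of-ratios and the mitochondria-free scaling, unless stated. With only the D3 and untreated D11 libraries of batch 1, 4942 genes were higher and 1848 lower with IL-13, and with only those of batch 2, 5092 and 1514. These choices are called batch 1 alone and batch 2 alone below. In both, all 6 IL-13 libraries stayed in and the batch term was dropped. The labels place 5 of the 6 IL-13 samples in batch 1. Batch 2 alone thus set mostly batch 1 IL-13 libraries against batch 2 ones, and is no comparison within a batch.

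Each gene was placed by 3 tests in the same fit: IL-13 D11 against D3, untreated D11 against D3, and IL-13 D11 against untreated D11. The first 2 share the D3 libraries, so their likeness is no independent result, and the third does not use D3. A maturation gene changed by at least 2-fold in untreated spheroids (1958 genes, 16.0% of those tested, 1058 up and 900 down). Of these, 1818 (14.9% of all tested, 1009 up and 809 down) also changed in the same direction under IL-13: 907 with no called difference from untreated D11 (kept in full), 774 by less than untreated (weaker) and 137 by more (stronger). Another 105 (0.859%) stayed at the D3 level under IL-13, which means that they were not called against D3, that the 95% interval of their change lay within 2-fold, and that they differed from untreated D11. A further 21 could not be placed. Whatever the size of their untreated change, 94 genes (0.769%) went the other way, called against D3 with opposite signs in the 2 kinds of D11 spheroid and at least 2-fold apart at D11. Another 105 (0.859%) changed at least 2-fold only with IL-13. Under all 3 scalings 1111 were kept in the same grade (full, weaker or stronger), 26 stayed, 29 went the other way and 21 changed with IL-13 only. Genes kept under all 3 scalings that moved between these grades are not among the 1111.

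**Figure D2:**
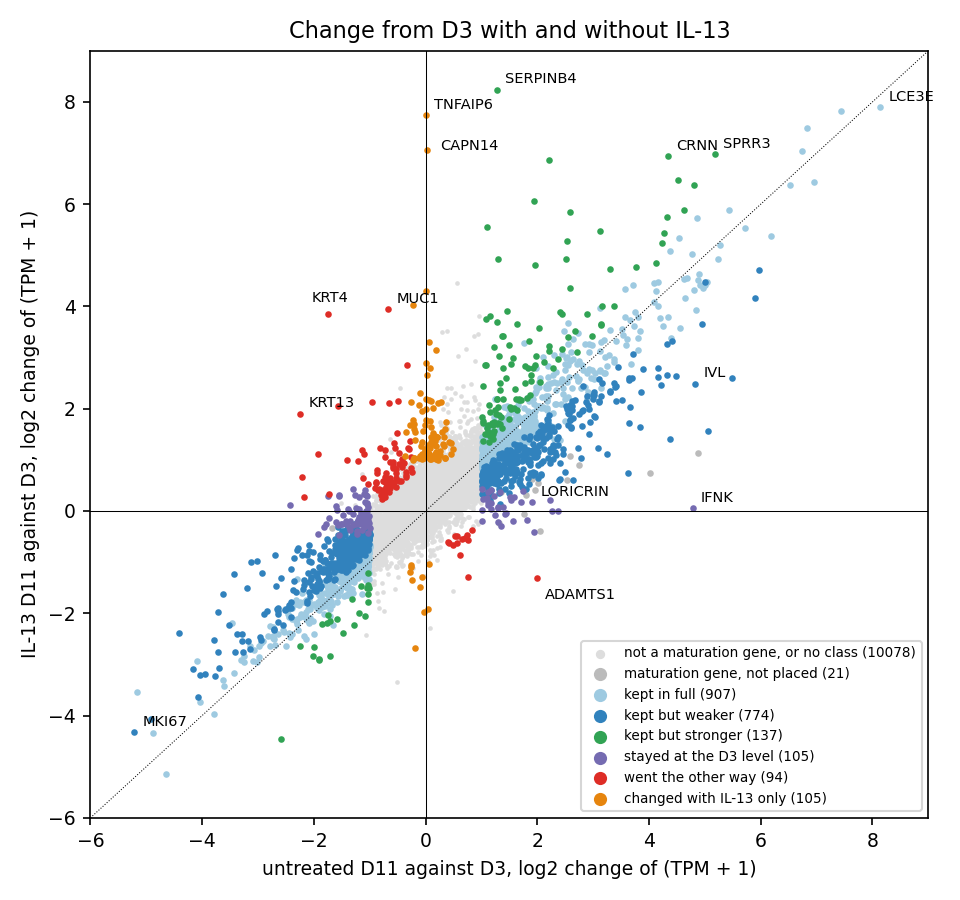
Change of each of the 12221 genes tested in untreated D11 against D3 (x axis) and in IL-13 D11 against D3 (y axis), both as log2 change of (TPM + 1), coloured by class with the number of genes in brackets. The dotted line marks equal change; both axes share the D3 libraries, and genes listed at 0 in every D3 library are drawn at their fitted value. KRT4, KRT13 and MUC1 lie at upper left, TNFAIP6 and CAPN14 on the vertical axis, and IFNK and LORICRIN on or near the horizontal axis.

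Transcripts of dividing cells fell under IL-13 much as without it. Of 36 cell cycle genes tested, 35 fell and 0 rose with IL-13, with a median change of -2.05, and 34 fell untreated, with a median of -2.50. Over all genes 20.9% fell and 45.1% rose with IL-13, and 35.8% and 33.6% untreated. KIF20A, a mitotic kinesin, stood at 0.6, 1.85 and 3.1 TPM with IL-13, 0.4, 0.5 and 1.3 TPM untreated and 31.3, 43.5 and 68.5 TPM at D3. MKI67, the standard marker of cycling cells, stood at 0.8, 3.5 and 5 TPM with IL-13, 0.6, 1.1 and 1.4 TPM untreated and 48.7, 58.1 and 118 TPM at D3. For both, every D11 library of either kind lay below every D3 library, and the falls with IL-13 were -4.34 ± 0.22 (adjusted p = 1.04e-16) and -4.33 ± 0.21 (adjusted p = 3.06e-17). CDC20, an activator of the anaphase-promoting complex, fell by 4.06. The median-of-ratios and mitochondria-free scalings gave list medians of -2.23 and -2.72.

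Some of these genes fell less with IL-13, but the share of them above untreated D11 was close to that of all genes. Against untreated D11, 15 of the 36 were higher and 0 lower (10 and 1 by median of ratios), where 39.2% of all genes were higher and 8.49% lower (47.6% in either direction). MKI67 was 0.89 ± 0.22 (adjusted p = 0.00127) above untreated D11 and CDC20 0.85 ± 0.26 (adjusted p = 0.00763), and the MKI67 libraries with and without IL-13 overlapped. The list median of the difference was 0.40, against 0.19 over all genes. Without IL-13 library 1, whose MKI67 was the lowest of the IL-13 libraries, 17 of the 36 were higher and 0 lower.

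Among the other large falls, GPX2, a glutathione peroxidase, was listed at 0 in every D11 library of both kinds, against 11.3, 18.7 and 29 TPM at D3, so no fold is given. S100A3, a calcium-binding protein of the S100 family, was listed at 0 in 5 of 6 libraries with IL-13 and in all 7 untreated libraries, against 8.2, 16.4 and 23.2 TPM at D3. FGFBP1, a carrier that releases fibroblast growth factors from the matrix, stood at 94.7, 111 and 163 TPM with IL-13, 321.5, 362 and 422.5 TPM untreated and 1622, 2016 and 2538.5 TPM at D3. It fell by 4.47 ± 0.26 (adjusted p = 2.98e-15) with IL-13, a difference of -1.88 ± 0.27 from untreated D11, and the 3 groups did not overlap. IRS1, an adaptor of insulin and IL-4 signalling (change -2.83 with IL-13 and -1.72 untreated), BHLHE41, a transcriptional repressor of the circadian clock (-2.91 and -1.91), and AKR1B10, an aldo-keto reductase (-2.90 and -1.91), also fell further with IL-13 than without, and for each the IL-13, untreated and D3 libraries did not overlap. The difference of IRS1 from untreated D11 was not called with the D3 and untreated libraries of batch 1 or batch 2 alone (-0.91 and -0.92).

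Basal genes moved in both directions. Of 18 basal keratinocyte genes 8 rose and 6 fell with IL-13, where 45.1% of all genes rose and 20.9% fell. Their median was 0.17, and it turned to -0.01 by median of ratios and to -0.42 without mitochondrially encoded transcripts, where 3 rose and 12 fell. Over all genes the last scaling gave a median of -0.33, with 1841 rises and 6570 falls. NGFR, a neurotrophin receptor of basal cells, fell by 3.30 ± 0.28 (adjusted p = 1.82e-11) and kept its untreated course (-3.63). KRT15, a keratin of basal and progenitor cells, stood at 164, 251 and 324.5 TPM with IL-13, 78, 117 and 134 TPM untreated and 369, 428 and 481 TPM at D3. Its fall with IL-13 was -0.99 ± 0.16 (adjusted p = 2.18e-06), against -2.05 untreated, and the 3 groups did not overlap. The abundant basal keratins KRT5 and KRT14 held medians of 26156 and 28671 TPM with IL-13, 25030.4 and 33001 TPM untreated and 38964 and 34568 TPM at D3. Their changes with IL-13 were -0.43 ± 0.10 (adjusted p = 0.000569) for KRT5 and -0.05 ± 0.11 (adjusted p = 0.726) for KRT14, and they were 0.04 and 0.84 under quantile normalization. They were -1.06 and -0.68, both called lower, without mitochondrially encoded transcripts.

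LAMB3, a chain of laminin 332 in the basement membrane, rose by 1.16 ± 0.18 with IL-13 and by 1.88 ± 0.17 untreated, and CDH3, the basal cadherin P-cadherin, rose by 1.01 ± 0.12 with IL-13. SOX2, a foregut transcription factor picked out after its values were seen, was the 1 basal gene that stayed at D3 as deposited, though not under all 3 scalings: 139 TPM with IL-13, 47.6 TPM untreated and 103 TPM at D3, with a change of 0.27 with IL-13 and -1.19 untreated. TP63, the master regulator of stratified epithelia, stood at 14.4, 21.9 and 24.6 TPM with IL-13, 10.4, 12.1 and 12.5 TPM untreated and 15.3, 17.8 and 21.5 TPM at D3. It was 0.82 ± 0.11 (adjusted p = 7.81e-07) above untreated D11, while its rise from D3 under IL-13, 0.27, was not called with either batch alone, and was -0.34 without mitochondrially encoded transcripts and -0.01 under quantile normalization. Of 36 alternatives the call of this rise was lost in 8 and its sign turned in 2.

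Most cornified envelope genes rose under IL-13, among them all 3 LCE3 genes and 9 of 10 SPRR genes. Those not called against D3 were the 4 LCE2 genes, LORICRIN, LCE1C, SPRR4 and CDSN, the last 3 picked out after their values were seen. Of 43 cornified envelope genes tested, 34 rose, 1 fell and 8 were not called with IL-13, with a median change of 2.40, and 42 rose and 1 fell untreated, with a median of 3.13. Over all genes 45.1% rose and 20.9% fell with IL-13, and 33.6% and 35.8% untreated. Against untreated D11, 7 were higher and 16 lower, where 39.2% of all genes were higher and 8.49% lower. The medians with IL-13 were 2.19 by median of ratios and 1.92 without mitochondrially encoded transcripts, and without IL-13 library 1 the count was 32 up and 2 down. The genes sit in families of near-identical copies, so reads may be shared between members of the SPRR and LCE families.

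The LCE3 genes, small late envelope proteins known from epidermal repair, rose with and without IL-13. LCE3E (chr1:152565654-152566772, minus strand, hg38) stood at 645, 969.5 and 2875.5 TPM with IL-13, 1000.5, 1286 and 3487 TPM untreated and 0, 16.2 and 31.6 TPM at D3. LCE3D (chr1:152579381-152580504, minus strand) stood at 1629, 2246 and 7363 TPM with IL-13, 1584, 2218 and 7099 TPM untreated and 0, 52.9 and 112 TPM at D3, and LCE3A at 415, 594 and 3140.1 TPM with IL-13, 421, 712 and 1566.5 TPM untreated and 0, 18.1 and 45.3 TPM at D3. In all 3, every D11 library of either kind exceeded every D3 library, and the differences of IL-13 from untreated D11 were -0.24 ± 0.67 (adjusted p = 0.784), 0.38 ± 0.79 (adjusted p = 0.709) and 0.31 ± 0.79 (adjusted p = 0.765), none of them called. The standard errors are too wide to show that the levels were alike. CRCT1, a neighbouring cysteine-rich gene, rose by 7.48 ± 0.63 (adjusted p = 1.33e-11) with IL-13 and stood at 1934, 2764 and 7619.9 TPM with IL-13, 1317.5, 1826 and 5302 TPM untreated and 2.5, 51.1 and 113.5 TPM at D3.

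The LCE1 and LCE2 genes, which encode envelope proteins of late epidermal differentiation, did not follow. All 4 LCE2 genes rose untreated (changes 1.44 to 2.38), none was called against D3 with IL-13 (-0.39 to 0.32), and all 4 were lower with IL-13 than untreated. Of 6 LCE1 genes 6 rose untreated and 5 rose with IL-13, with medians of 1.26 with IL-13 and 3.07 untreated, and 5 were lower with IL-13 than untreated. LCE1A stood at 0, 1.6 and 38.6 TPM with IL-13, 16.8, 41.4 and 296 TPM untreated and 0, 0 and 4.5 TPM at D3, with a change of 1.55 ± 0.60 (adjusted p = 0.0231) with IL-13 and a difference of -3.51 ± 0.61 from untreated. LCE1F stood at 1, 1.65 and 19.2 TPM with IL-13, 12.5, 22.5 and 140.1 TPM untreated and 0, 0.6 and 3.2 TPM at D3, with a change of 1.41 ± 0.46 (adjusted p = 0.00888) and a difference of -2.96 ± 0.48. For both the IL-13 libraries overlapped D3 and 1 IL-13 library overlapped the untreated ones. The rise of LCE1A was not called without IL-13 library 1 (0.90) or 4 (1.31), with batch 1 or batch 2 of D3 and untreated D11 alone, with library weights (0.40) or without the batch term. That of LCE1F was not called with library weights (0.12), with batch 2 alone (0.59), without the batch term (1.09) or without IL-13 library 1 and D3 libraries 4 and 7 together (0.85). LORICRIN, the major protein of the epidermal envelope, is described with the genes that stayed.

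**Figure D3:**
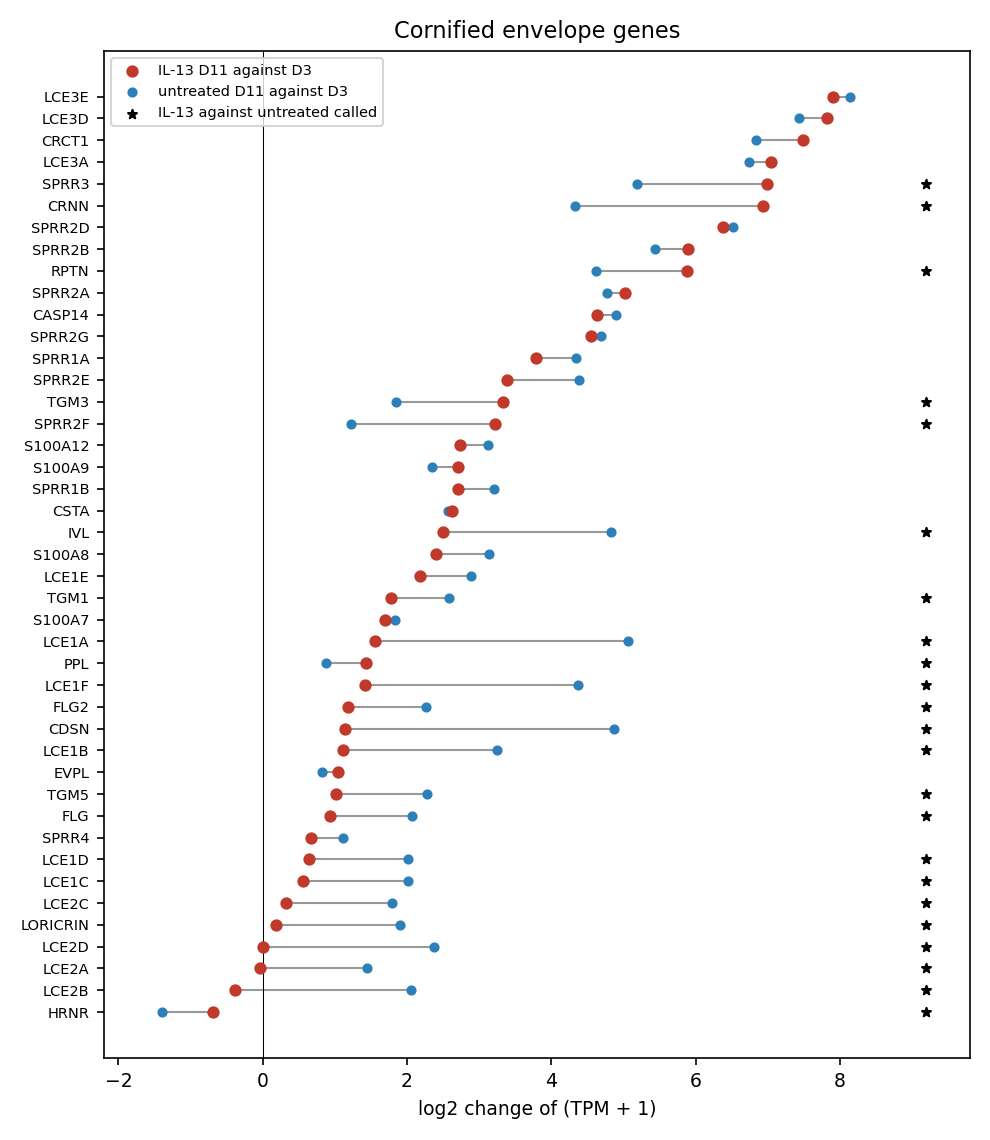
Log2 change of (TPM + 1) against D3 of the 43 cornified envelope genes tested, in IL-13 D11 (red) and untreated D11 (blue), ordered by the change with IL-13. Stars mark genes called between IL-13 D11 and untreated D11; LCE3 genes show both points close together at the top, and LCE2 genes and LORICRIN show the red point near 0.

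The small proline-rich proteins, which cross-bridge the envelope, rose in 9 of 10 cases with IL-13 and in 10 of 10 untreated, with medians of 4.17 with IL-13 and 4.54 untreated. SPRR3, the member abundant in esophagus, stood at 10043, 13252 and 16202 TPM with IL-13, 3395, 4239 and 5101 TPM untreated and 18.2, 261 and 432 TPM at D3. The 3 groups did not overlap, the change with IL-13 was 6.99 ± 0.53 (adjusted p = 1.16e-12) and the excess over untreated D11 was 1.80 ± 0.54 (adjusted p = 0.00738). SPRR2F was the other member above untreated, picked out after its values were seen, at 20.8 TPM with IL-13, 5.4 TPM untreated and 2 TPM at D3, with a difference of 2.00. CRNN, cornulin, an S100 fused protein of the esophageal surface layers, stood at 927, 1216 and 1707 TPM with IL-13, 129, 212 and 289 TPM untreated and 2.1, 14.3 and 27.8 TPM at D3. It rose by 6.93 ± 0.37 (adjusted p = 3.95e-16) with IL-13, 2.60 ± 0.38 beyond untreated D11, again with no overlap.

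IVL and FLG rose less with IL-13 than without, and HRNR fell less. IVL, involucrin, an early envelope scaffold, stood at 45.2, 77.2 and 184 TPM with IL-13, 335.5, 466 and 578.5 TPM untreated and 3.6, 30.2 and 43 TPM at D3. It rose by 2.49 ± 0.44 (adjusted p = 1.15e-05) with IL-13 and ended -2.33 ± 0.45 from untreated D11, each IL-13 library between the D3 and the untreated libraries. FLG, filaggrin, which bundles keratin in epidermis, stood at 2, 2.65 and 4.3 TPM with IL-13, 5.6, 7.6 and 9.2 TPM untreated and 0.4, 1.4 and 1.7 TPM at D3, with a rise of 0.93 ± 0.14 and a difference of -1.13 ± 0.14. HRNR, hornerin, another S100 fused protein, was the 1 envelope gene that fell, with a change of -0.69 ± 0.13 with IL-13: it stood at 1.1, 2.15 and 3.4 TPM with IL-13, 0.5, 0.8 and 1.3 TPM untreated and 3, 3.8 and 4.6 TPM at D3.

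With IL-13 the suprabasal list had the largest median rise of the lists as deposited, and untreated the cornified envelope list had. Of the 30 suprabasal genes 29 rose and 0 fell with IL-13, with a median of 2.81, and 27 rose and 2 fell untreated, with a median of 2.43. Over all genes 45.1% rose and 20.9% fell with IL-13, and 33.6% and 35.8% untreated. Without mitochondrially encoded transcripts 27 rose with IL-13, with a median of 2.47. The exception was KRT1, a keratin of suprabasal epidermis, at 12, 15.2 and 77.7 TPM with IL-13, 45.6, 63 and 137 TPM untreated and 1.1, 45.5 and 62.3 TPM at D3, whose change with IL-13 in the fit with batch, 1.08, was not called (adjusted p = 0.158). KRT78, a keratin of esophageal suprabasal cells, stood at 97.8, 131.5 and 168 TPM with IL-13, 46.6, 52.6 and 59.2 TPM untreated and 0.2, 3.2 and 4.6 TPM at D3. It rose by 5.76 ± 0.29 with IL-13 and exceeded untreated D11 by 1.44 ± 0.29. MAL, a lipid raft protein of esophageal suprabasal cells, stood at 15.6, 32 and 38.9 TPM with IL-13 and 1, 1.6 and 1.8 TPM untreated, a difference of 3.62 ± 0.12 (adjusted p = 1.18e-20), and was listed at 0 in every D3 library. KRT4 and KRT13 of this list went the other way and are described with that class.

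The largest rise of all genes tested, as deposited, was that of a protease inhibitor. SERPINB4, an inhibitor of serine and cysteine proteases (chr18:63637259-63644298, minus strand), stood at 471, 604 and 830.2 TPM with IL-13, 2.3, 4 and 6.4 TPM untreated and 0.1, 1.6 and 2.7 TPM at D3. Each IL-13 library exceeded every other library by far, the rise from D3 was 8.24 ± 0.21 (adjusted p = 2.18e-24) and the excess over untreated D11 was 6.96 ± 0.21. Its neighbour SERPINB3 stood at 1589, 1760.3 and 2373 TPM with IL-13, 155.5, 209 and 274 TPM untreated and 8.4, 71.1 and 88.3 TPM at D3 and rose by 5.85 ± 0.38, and reads may be shared between these near-identical genes. SPINK7, an esophageal inhibitor of serine proteases, rose in both kinds of spheroid: 113, 146.5 and 361 TPM with IL-13, 165, 248 and 387 TPM untreated and 0, 1.7 and 3.6 TPM at D3, with a difference of -0.51 ± 0.26 (adjusted p = 0.0998) at D11. Its class was full under 2 scalings and weaker by median of ratios, and the difference was called without IL-13 library 1 (-0.74) and with batch 2 alone (-1.02).

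Over the protease list of 35 genes 30 rose and 2 fell with IL-13, with a median of 2.32, and 29 rose and 1 fell untreated, with a median of 1.87. Of all genes 45.1% rose and 20.9% fell with IL-13, and 33.6% and 35.8% untreated. Against untreated D11, 13 were higher and 9 lower, where 39.2% of all genes were higher and 8.49% lower. By median of ratios 9 were higher and 12 lower, where 2348 of all 12221 genes were higher and 2521 lower. The 2 that fell were KLK9, a kallikrein protease, and SERPINB1, an inhibitor of neutrophil proteases. KLK9 stood at 0, 1 and 13.7 TPM with IL-13, 2.9, 15.5 and 46.2 TPM untreated and 5.5, 15.3 and 21.9 TPM at D3, with 3 of the IL-13 libraries listed at 0, and its change with IL-13 was -2.29 ± 0.53 (adjusted p = 0.000372). SERPINB1 fell, with changes of -0.52 ± 0.14 with IL-13 and -0.63 ± 0.13 untreated. Without mitochondrially encoded transcripts 5 fell with IL-13.

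Of 25 tested genes of the Ly6, mucin and antimicrobial list 19 rose and 4 fell with IL-13, with a median of 2.19, and 19 rose and 5 fell untreated, with a median of 1.95. Over all genes 45.1% rose and 20.9% fell with IL-13, and 33.6% and 35.8% untreated. LYPD2, a Ly6 family protein, stood at 154, 171 and 177 TPM with IL-13, 3.4, 6.8 and 10.0 TPM untreated and 0, 0.9 and 1.9 TPM at D3, a rise of 6.87 ± 0.19 with IL-13 and a difference of 4.66 ± 0.20 from untreated. MUC21, a membrane mucin of squamous epithelium, stood at 132, 193 and 249 TPM with IL-13, 6.9, 9.7 and 18.1 TPM untreated and 0, 2.4 and 4.9 TPM at D3, a rise of 6.06 ± 0.29 and a difference of 4.11 ± 0.30. In both, the IL-13 libraries lay above all untreated and D3 libraries. LCN2, an iron-withholding antimicrobial protein, rose by 6.38 ± 0.42 with IL-13 and by 4.81 ± 0.39 untreated.

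SAA1, an acute phase protein, fell less with IL-13 than without. It stood at 5.2, 7.7 and 15.1 TPM with IL-13, 0.7, 1.2 and 2.5 TPM untreated and 19.2, 72.4 and 86.9 TPM at D3, the 3 groups did not overlap, and the falls were -2.39 with IL-13 and -4.41 untreated. SAA2 stood at 0.7, 1.15 and 3 TPM with IL-13, 0, 0.1 and 0.4 TPM untreated and 2.8, 7.4 and 10.8 TPM at D3, with changes of -1.48 and -2.67, and shares much of its sequence with SAA1.

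Cytokines moved in both directions. Of 28 epithelial cytokines and chemokines tested, 9 rose and 6 fell with IL-13, where 45.1% of all genes rose and 20.9% fell. The list median was 0.26, and it was 0.22 by median of ratios and -0.01 without mitochondrially encoded transcripts. IL36A, an agonist of the IL-36 receptor, stood at 23.1, 67.6 and 88.4 TPM with IL-13, 0.5, 2.5 and 4.1 TPM untreated and 0, 0.2 and 1.1 TPM at D3, a rise of 5.54 ± 0.26 with IL-13 and a difference of 4.45 ± 0.27 from untreated, with no overlap between the IL-13 libraries and any other. IL1RN, the antagonist of the IL-1 receptor, rose by 2.97 ± 0.15 with IL-13 and 2.37 ± 0.13 untreated. CSF3, a granulocyte growth factor, and IL18, an inflammasome cytokine, fell, with changes of -1.32 and -1.24 with IL-13. The CSF3 change was not called with library weights (-0.08), without IL-13 library 1 (-0.97), without it and D3 libraries 4 and 7 (-0.87) or with batch 2 alone (-0.92). TNF and CSF2, picked out after their values were seen, rose untreated (1.42 and 1.75) and stayed at the D3 level with IL-13 (-0.06 and 0.40), TNF not under all 3 scalings.

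Of the maturation genes kept but weaker, DEPP1, an inducer of autophagy, was far below its untreated level. It stood at 7.8, 15.8 and 37.4 TPM with IL-13, 86.3, 114 and 198 TPM untreated and 0.8, 1.7 and 6.7 TPM at D3, with each IL-13 library above every D3 library and below every untreated one, and its rise was 2.61 ± 0.27 with IL-13 and 5.48 ± 0.25 untreated. MMP10, a matrix metalloproteinase, stood at 0.5, 0.85 and 1.6 TPM with IL-13, 11.8, 13.7 and 15.3 TPM untreated and 0.1, 0.2 and 0.5 TPM at D3, with changes of 0.74 and 3.62. DSG1, the desmosomal cadherin of upper layers, stood at 49, 58.2 and 70.0 TPM with IL-13, 137, 194 and 224 TPM untreated and 2.2, 19.5 and 26.4 TPM at D3. It rose by 2.62 ± 0.39 with IL-13, -1.54 ± 0.40 from untreated D11, and no group overlapped another.

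KREMEN2, a co-receptor that restrains Wnt signalling, fell less with IL-13. It stood at 5.4, 6 and 7.2 TPM with IL-13, 0.2, 0.4 and 1.1 TPM untreated and 8.5, 16.9 and 27.2 TPM at D3, with changes of -1.23 with IL-13 and -3.44 untreated and no overlap. PIGW, an enzyme of glycosylphosphatidylinositol anchors, and SPTSSA, a subunit of serine palmitoyltransferase, were less even. PIGW stood at 0, 9.8 and 11.5 TPM with IL-13, 0, 0 and 3.5 TPM untreated and 5.4, 9.3 and 16.8 TPM at D3, and its call against D3 with IL-13 (adjusted p = 0.0352) was lost with either batch alone, without IL-13 library 1 or 3, or without D3 library 1, 2, 7 or 8, when the change was between -0.98 and -0.45. In all, this call was lost in 12 of 36 alternatives. SPTSSA stood at 3.4, 12.3 and 19.9 TPM with IL-13, 0, 2.2 and 6.1 TPM untreated and 15.6, 18 and 19.8 TPM at D3, and its IL-13 libraries overlapped both other groups. Its call against D3 with IL-13 was lost in 3 of 36 alternatives.

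Of the 105 genes that stayed at D3 under IL-13, 34 rose and 71 fell in untreated spheroids, and 14 and 12 of them stayed under all 3 scalings. IFNK, interferon kappa, a type I interferon of keratinocytes (chr9:27524314-27526498, plus strand), had the largest untreated rise of them. It was listed at 0 in 5 IL-13 libraries and at 0.6 TPM in the other one, stood at 19.7, 24.3 and 44.4 TPM untreated and was listed at 0 in every D3 library. Of these groups, only untreated D11 carried it past the filter on low values, so its class was partly fixed by that filter. The IL-13 and untreated libraries did not overlap, and the difference at D11 was -4.72 ± 0.13 (adjusted p = 1.47e-22). LORICRIN (chr1:153259700-153262122, plus strand) stood at 0, 0.65 and 3.7 TPM with IL-13, 2.7, 5 and 9.5 TPM untreated and 0, 0.4 and 1.9 TPM at D3, with a change of 0.18 ± 0.26 (adjusted p = 0.553) with IL-13 and 1.91 ± 0.24 (adjusted p = 2.87e-08) untreated. The highest of its IL-13 libraries overlapped the untreated range.

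The other named genes of this kind were low in TPM. CXCR1, a receptor for IL-8, stood at 0, 0.25 and 0.6 TPM with IL-13, 3.2, 5 and 7.1 TPM untreated and 0, 0.2 and 0.5 TPM at D3. Of these groups, only untreated D11 carried CXCR1 past the filter on low values. IGFL3, an insulin-like growth factor family protein, stood at 0, 0.35 and 2.8 TPM with IL-13, 2.6, 5.9 and 9.5 TPM untreated and 0, 0.3 and 1 TPM at D3. USP2, a deubiquitinase, stood at 0.6, 0.9 and 3 TPM with IL-13, 3, 5 and 8.6 TPM untreated and 0.6, 1 and 1.1 TPM at D3. Their changes with IL-13 were 0.00, 0.22 and 0.18, against 2.26, 2.22 and 1.70 untreated, and the IL-13 libraries overlapped D3 in all 3 and untreated D11 in IGFL3 and USP2.

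Other genes fell without IL-13 and stayed near D3 with it. PRODH, the first enzyme of proline breakdown, stood at 6.4, 10.6 and 12.6 TPM with IL-13, 1.1, 1.8 and 2.2 TPM untreated and 4.1, 11.3 and 14.3 TPM at D3, a change of 0.29 ± 0.21 (adjusted p = 0.231) with IL-13 and -1.75 ± 0.19 (adjusted p = 2.88e-09) untreated. IFIT5, an interferon-induced RNA-binding protein, stood at 8.1, 19.8 and 25.7 TPM with IL-13, 2.2, 4.5 and 6 TPM untreated and 13.4, 14.7 and 18.1 TPM at D3. APOL6, a member of the interferon-inducible apolipoprotein L family, stood at 10.9, 27.1 and 35 TPM with IL-13, 4.2, 8.5 and 9.2 TPM untreated and 14.4, 19.9 and 22.1 TPM at D3. For all 3 the IL-13 libraries lay above every untreated library and overlapped D3, and the changes with IL-13 of IFIT5 and APOL6 were 0.29 ± 0.18 and 0.43 ± 0.23.

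MSRB1, a methionine sulfoxide reductase, and SERPINB10, another clade B serpin, followed the same course with changes of 0.31 and 0.32 with IL-13 and -1.26 and -1.56 untreated. IL-13 library 1 was the lowest IL-13 library in IFIT5, APOL6, PRODH, MSRB1 and SERPINB10, on the side of the untreated spheroids. Without that library the changes of IFIT5 (0.50), APOL6 (0.66), MSRB1 (0.48) and SERPINB10 (0.58) were called higher than D3, so that they no longer stayed. MSRB1 (adjusted p = 0.059 as deposited) was also called without D3 library 3, 4 or 6 or untreated library 5, without the batch term or with a pseudocount of 5, and PRODH was called with batch 1 alone (0.54).

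The count of genes that stayed was 101 with D3 and untreated libraries of batch 1 alone and 438 with those of batch 2. Without IL-13 library 1 it was 141.

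Of the 94 genes that went the other way, 80 rose and 14 fell with IL-13, and 14 had moved at least 2-fold in untreated spheroids. In 24 of the 94 the IL-13 and D3 libraries did not overlap, where 29.5% of all genes had none. KRT4, the main suprabasal keratin of esophagus (chr12:52806549-52814551, minus strand), stood at 485, 764 and 1034.5 TPM with IL-13, 12.3, 16.3 and 17.7 TPM untreated and 16, 81.6 and 128 TPM at D3. Each IL-13 library exceeded every D3 library, and all 7 untreated libraries lay below 8 of the 9 D3 libraries. Its changes were 3.85 ± 0.34 (adjusted p = 3.84e-11) with IL-13 and -1.74 ± 0.31 (adjusted p = 1.35e-05) untreated. With D3 and untreated libraries of batch 1 or batch 2 alone the change with IL-13 was 4.19 or 3.32, and untreated -1.41 or -2.03.

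KRT13, the keratin partner of KRT4 (chr17:41500981-41505705, minus strand), stood at 100.1, 244 and 278 TPM with IL-13, 8.3, 11.2 and 16.2 TPM untreated and 24.7, 85.6 and 105 TPM at D3. The IL-13 range began at library 1 with 100.1 TPM, within the D3 range, and the other 5 lay above D3, while all untreated libraries lay below D3. The changes were 1.91 ± 0.30 (adjusted p = 1.96e-06) with IL-13 and -2.24 ± 0.27 (adjusted p = 2.03e-08) untreated, and 2.12 with IL-13 without library 1. The D3 libraries of both keratins fell in 2 sets, with libraries 2, 7, 8 and 9 low, as on the line between the D3 and untreated D11 profiles.

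MUC1, a membrane mucin (chr1:155185824-155192916, minus strand), stood at 34.7, 56.3 and 61.1 TPM with IL-13, 0.9, 1.1 and 1.9 TPM untreated and 1.5, 2.4 and 3.9 TPM at D3. All IL-13 libraries lay above D3, which overlapped untreated D11, and the changes were 3.95 ± 0.17 (adjusted p = 7.25e-19) with IL-13 and -0.67 ± 0.15 (adjusted p = 0.000261) untreated. ANO1, a calcium-activated chloride channel, stood at 6.1, 12.8 and 13.9 TPM with IL-13, 0.6, 0.7 and 1 TPM untreated and 1.2, 1.6 and 2 TPM at D3, with changes of 2.11 and -0.66. RASL11B, a small GTPase, stood at 13.7, 24.7 and 27.1 TPM with IL-13, 0.2, 0.8 and 2 TPM untreated and 2.1, 4.5 and 6.8 TPM at D3, with changes of 2.04 and -1.57, and in both of these the 3 groups did not overlap. The untreated change of ANO1 was not called with batch 2 alone (-0.46). DPP4, a dipeptidyl peptidase of the cell surface, stood at 4.6, 9.8 and 13 TPM with IL-13, 0.1, 0.1 and 0.2 TPM untreated and 0.2, 0.4 and 0.6 TPM at D3, and its untreated change of -0.34 was not called with batch 1 or batch 2 alone (-0.37 and -0.32). CTSC, the protease cathepsin C (2.15 and -0.49), and CYP1B1, a cytochrome P450 (2.14 and -0.96), picked out after their values were seen, also went up with IL-13 and down without it under all 3 scalings.

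Falls under IL-13 against a rise without it were fewer. ADAMTS1, a metalloproteinase that cleaves proteoglycans (chr21:26835747-26845409, minus strand), stood at 4.5, 7.1 and 23.1 TPM with IL-13, 70.3, 94.8 and 108 TPM untreated and 16.3, 21.3 and 28.8 TPM at D3. The untreated libraries lay above all others, 4 of the IL-13 libraries lay below D3 and the other 2 within its range, and the changes were -1.31 ± 0.23 (adjusted p = 1e-05) with IL-13 and 1.99 ± 0.21 (adjusted p = 1.04e-09) untreated. LIPG, endothelial lipase, stood at 0.9, 1.2 and 2 TPM with IL-13, 7, 7.9 and 9.7 TPM untreated and 3.5, 4.3 and 5.2 TPM at D3 with no overlap between the groups, and SPON2, a secreted matrix protein, at 1.3, 2.1 and 3.2 TPM with IL-13, 5.5, 6.4 and 7.1 TPM untreated and 2.4, 3.5 and 4.5 TPM at D3. Their changes with IL-13 were -1.28 and -0.52, against 0.77 and 0.71 untreated. The number of genes that went the other way rested on 1 library: without IL-13 library 1 it was 154. It was 48 with D3 and untreated libraries of batch 1 alone and 156 with those of batch 2.

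**Figure D4:**
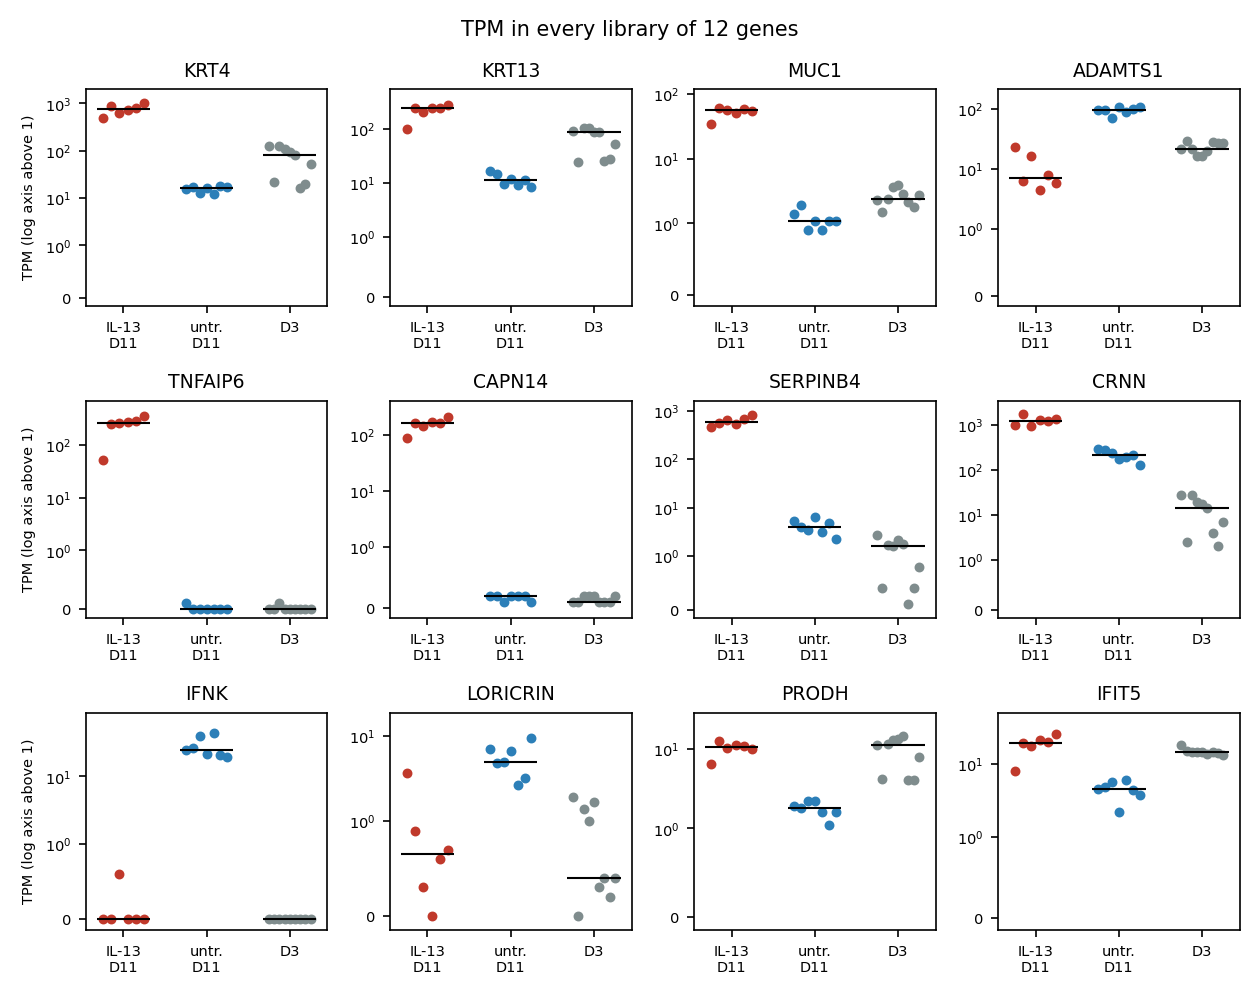
TPM in every library of 12 genes, with IL-13 D11 (red), untreated D11 (blue) and D3 (grey) from left to right; the axis is logarithmic above 1 TPM and linear below, points run in column order within a group and black lines are medians. KRT4 with IL-13 spans 485 to 1034.5 TPM, above all untreated and D3 libraries, and IFNK is at or near 0 in all but the untreated group.

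Of the 105 genes that changed with IL-13 only, 95 rose and 10 fell, and 26 had a D3 median under 1 TPM. TNFAIP6, CAPN14, CLDN5 and DEFB104A stood under 1 TPM in every untreated and D3 library. Of the D11 and D3 groups, only IL-13 D11 thus carried them past the filter on low values. A gene near 0 in both other groups can hardly show an untreated change. The split into rises and falls was thus partly fixed by filter and class rule, and is no further result. In 72 of the 105 the IL-13 and D3 libraries did not overlap, where 29.5% of all genes had no overlap. The class was chosen by a called change of at least 2-fold between these same libraries. The count of 72 was thus partly fixed by that choice and is no further result. Under all 3 scalings 21 rose and 0 fell. TNFAIP6, a secreted hyaluronan-binding protein (chr2:151357592-151380048, plus strand), stood at 52.3, 265 and 353 TPM with IL-13, 0, 0 and 0.1 TPM untreated and 0, 0 and 0.1 TPM at D3. The smallest IL-13 value was that of library 1, and 6 of 7 untreated and 8 of 9 D3 libraries were listed at 0. The change with IL-13 was 7.74 ± 0.23 (adjusted p = 9.74e-23). CAPN14, a calpain protease of the esophagus (chr2:31173056-31233858, minus strand), stood at 90.2, 164 and 209 TPM with IL-13, 0.1, 0.2 and 0.2 TPM untreated and 0.1, 0.1 and 0.2 TPM at D3. Its change with IL-13 was 7.06 ± 0.10 (adjusted p = 3.97e-31), and its untreated change was 0.03 ± 0.09 (adjusted p = 0.781).

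DEFB104A, a beta-defensin with a near-identical copy, stood at 2.8, 6.75 and 11.6 TPM with IL-13 and was listed at 0 in every untreated and D3 library. CLDN5, a tight junction protein best known from endothelium, stood at 3.9, 9.7 and 13.2 TPM with IL-13, 0, 0 and 0.3 TPM untreated and 0, 0 and 0.1 TPM at D3, with a change of 3.30 ± 0.13 (adjusted p = 2.13e-19), while the endothelial markers PECAM1 and VWF were listed at no more than 0.3 TPM in any IL-13 library. GATA3, a transcription factor picked out after its values were seen, rose by 2.79 with IL-13, with an untreated change of 0.08.

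STAT6 is known to prefer a spaced palindrome of TTC and GAA with 4 free bases between them. Promoter sequences of RefSeq on GRCh38.p14, from 250 bases before to 50 after each start, held 12 windows for 8 of the named genes that went the other way or changed with IL-13 only. The motif lay in 1 of the 12, against 2261 of 35116 windows in the whole table (6.44%), counted on both strands, which the palindrome makes the same, with overlapping copies allowed. That window belongs to a start of CAPN14 at chr2:31217466-31217765 on the minus strand. It is shown because CAPN14 changed with IL-13 only and because the window holds 2 copies, in capitals, whose first bases lie 180 and 120 bases before the start. The other CAPN14 start in the table held none.

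CAPN14: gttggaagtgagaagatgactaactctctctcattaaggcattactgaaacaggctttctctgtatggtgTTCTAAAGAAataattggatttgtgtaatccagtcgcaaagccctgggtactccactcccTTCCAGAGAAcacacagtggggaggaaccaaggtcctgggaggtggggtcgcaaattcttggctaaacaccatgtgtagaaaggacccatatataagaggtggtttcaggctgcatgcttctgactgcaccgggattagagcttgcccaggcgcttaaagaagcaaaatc

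The list of 22 tested IL-13 response genes of esophageal epithelium, which was drawn up with earlier results of these data known, showed 17 rises and 1 fall with IL-13, with a median of 2.11, and 12 rises and 4 falls untreated, with a median of 0.30. Over all genes 45.1% rose and 20.9% fell with IL-13, and 33.6% and 35.8% untreated. Against untreated D11, 16 were higher and 0 lower (15 and 4 by median of ratios), where 39.2% of all genes were higher and 8.49% lower as deposited. Beside SERPINB4 and TNFAIP6, CDH26, a cadherin, stood at 1.9, 5.3 and 6.3 TPM with IL-13, 0.3, 0.4 and 0.6 TPM untreated and 0, 0.1 and 0.1 TPM at D3, with a change of 2.40 with IL-13. Leaving out mitochondrially encoded transcripts gave 17 rises and 3 falls. The 1 fall as deposited was HAS3, a hyaluronan synthase, at -1.32 with IL-13 and -1.01 untreated. CCL26, the eosinophil attractant eotaxin 3, and ALOX15, a lipoxygenase, failed the filter on low values: CCL26 stood at 0.4, 1.35 and 2.2 TPM with IL-13, 0, 0 and 0.2 TPM untreated and 0, 0 and 0.1 TPM at D3, and ALOX15 at 0, 0.25 and 0.5 TPM with IL-13, 0, 0 and 0.1 TPM untreated and 0, 0 and 0.2 TPM at D3.

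Of 21 receptor and signalling genes 8 rose and 3 fell with IL-13, where 45.1% of all genes rose and 20.9% fell, with a median of 0.14 that was 0.01 by median of ratios and -0.40 without mitochondrially encoded transcripts. IL13RA1 stood at 5.9, 9 and 10.7 TPM with IL-13, 7.2, 9 and 10.1 TPM untreated and 3.5, 4.2 and 4.7 TPM at D3, with the same change, 0.92, in both kinds of spheroid. IL4R had a change of 0.14 ± 0.09 (adjusted p = 0.156) with IL-13, which was -0.44 without mitochondrially encoded transcripts, and IL13RA2, a decoy receptor, was listed at no more than 0.1 TPM in any of these libraries. STAT6 fell, with changes of -0.31 ± 0.10 with IL-13 and -0.75 ± 0.09 untreated. With IL-13, 5 of the 21 rose and 10 fell when mitochondrially encoded transcripts were left out. Over all genes that scaling gave a median of -0.33, with 1841 rises and 6570 falls.

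Genes that feed back on this chain were among those that rose. CISH, a cytokine-inducible inhibitor, stood at 118, 204 and 232 TPM with IL-13, 27.4, 31.8 and 34 TPM untreated and 13.9, 15.7 and 19.7 TPM at D3, a change of 3.46 ± 0.11 (adjusted p = 1.17e-21) with IL-13 and 0.93 ± 0.10 (adjusted p = 3.07e-09) untreated. SOCS1, an inhibitor of JAK kinases, stood at 146, 205 and 211 TPM with IL-13, 47.4, 57 and 73.9 TPM untreated and 30.6, 46.2 and 70.2 TPM at D3, a change of 1.99 ± 0.15 (adjusted p = 1.7e-12) with IL-13. In both the IL-13 libraries lay above all others. PIM1, a kinase induced by STAT factors, rose less with IL-13 (2.79) than without (4.16).

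Of 21 interferon-stimulated genes 14 rose and 3 fell with IL-13, with a median of 0.87, and 7 rose and 9 fell untreated, with a median of -0.15. Over all genes 45.1% rose and 20.9% fell with IL-13, and 33.6% and 35.8% untreated. Against untreated D11, 10 of the 21 were higher and 2 lower with IL-13, where 39.2% of all genes were higher and 8.49% lower. The 14 rises became 7 with batch 1 and 6 with batch 2 alone, and 10 without mitochondrially encoded transcripts. IFITM1, a membrane restriction factor, ranged from 0 to 24.5 TPM among D3 libraries, and its rise of 2.97 ± 0.97 (adjusted p = 0.00843) was not called with batch 1 or batch 2 alone (2.27 and 1.52). IRF9, a subunit of the interferon response factor, rose by 2.22 ± 0.35 with IL-13. IFITM3 and OAS3, a restriction factor close in sequence to IFITM1 and an RNA sensor, fell, with changes of -1.15 and -0.66. A further 2 went the other way, picked out after their values were seen: IRF1, an interferon regulatory factor (0.91 with IL-13 and -0.42 untreated), and, not under all 3 scalings, ISG15, a ubiquitin-like modifier (0.56 and -0.59). IFI35 (0.41 and -1.08) stayed beside IFIT5.

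For the MHC class I list of 18 genes, 9 rose and 3 fell with IL-13, beside 45.1% and 20.9% of all genes, and 3 rose and 9 fell untreated. With IL-13, 12 were higher and 0 lower than untreated, beside 39.2% and 8.49% of all genes. The median with IL-13 was 0.27, but -0.35 without mitochondrially encoded transcripts, where 1 rose and 9 fell, and 5 fell as deposited without IL-13 library 4 or D3 library 7. Over all genes the median without mitochondrially encoded transcripts was -0.33, with 1841 rises and 6570 falls, so the list moved much as all genes did. Class I genes are close copies of each other and may share reads. HLA-E and HLA-C, class I heavy chains, stood at 867 TPM with IL-13, 759 TPM untreated and 336 TPM at D3 for HLA-E and 495 TPM with IL-13, 317 TPM untreated and 261 TPM at D3 for HLA-C, with changes of 1.56 and 0.95 with IL-13, and TAP2, a peptide transporter, and NLRC5, the activator of class I genes, fell, with changes of -0.59 and -0.25. The rise of HLA-C was not called without mitochondrially encoded transcripts (0.32), nor the fall of NLRC5 with library weights (-0.11). NLRC5 stood at no more than 0.6 TPM in any D3 library, 0.1 TPM untreated and 0.3 TPM with IL-13. It passed the filter on low values through the monolayers alone, and its fall is one between values near 0. As deposited, but not under all 3 scalings, the genes that stayed were PSMB8 and PSMB9, catalytic subunits of the immunoproteasome, and TAPBP, a loading chaperone, and those that went the other way were PSMB10, the other catalytic subunit, and HLA-B, all picked out after their values were seen. PSMB10 had a change of 0.33 with IL-13 and -1.74 untreated, PSMB9 of -0.30 and -1.82, and PSMB8 of -0.24 and -1.42.

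Of 24 wound-edge genes 14 rose and 4 fell with IL-13, with a median of 0.76, and 21 rose and 0 fell untreated, with a median of 0.92. Over all genes 45.1% rose and 20.9% fell with IL-13, and 33.6% and 35.8% untreated. With IL-13, 6 were higher and 13 lower than untreated, where 39.2% of all genes were higher and 8.49% lower. Without mitochondrially encoded transcripts 10 rose and 7 fell with IL-13. TNC, tenascin C, a matrix protein of wounds, stood at 21.8, 41.2 and 48.3 TPM with IL-13, 3.9, 6.9 and 9.9 TPM untreated and 2.6, 3.6 and 6.3 TPM at D3, a rise of 3.03 ± 0.25 with IL-13, and its libraries with IL-13 lay above all others. MMP9, a gelatinase, stood at 5.3, 10.3 and 12.3 TPM with IL-13, 13, 16.8 and 20.5 TPM untreated and 0.1, 0.9 and 1.8 TPM at D3, and its difference between both kinds of D11 spheroid, -0.34, was not called (adjusted p = 0.549), although their libraries did not overlap, and it was called with library weights (-0.92) or with D11 and D3 libraries alone (-0.67). MMP1, a collagenase, and FN1 and TGFBI, matrix proteins, picked out after their values were seen, stayed at D3 as deposited, though not under all 3 scalings, with changes of -0.41, 0.23 and 0.27 with IL-13, against 1.94, 1.03 and 1.58 untreated. INHBA, a subunit of activin, and MMP3, a stromelysin, went the other way as deposited, with changes of -0.66 and -0.85 with IL-13 and 0.49 and 0.61 untreated. The untreated rise of MMP3 was not called without mitochondrially encoded transcripts (0.26) or with batch 2 alone (0.18), and the fall of INHBA with IL-13 was not called with library weights (-0.05). The untreated rise of INHBA turned to -0.08 without mitochondrially encoded transcripts, and it was not called with either batch alone.

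Of 34 desmosome and tight junction genes 28 rose and 0 fell with IL-13, with a median of 0.88, and 25 rose and 1 fell untreated, also with a median of 0.88. Over all genes 45.1% rose and 20.9% fell with IL-13, and 33.6% and 35.8% untreated. By median of ratios 23 rose and 2 fell with IL-13, and without mitochondrially encoded transcripts 18 and 6. CLDN17 and CLDN7, claudins of tight junctions, had the largest rises, of 5.73 ± 0.49 and 3.85 ± 0.27 with IL-13. CLDN7 stood at 67.9, 141 and 158 TPM with IL-13, 28, 54.2 and 76.7 TPM untreated and 4.5, 8.4 and 11.2 TPM at D3, a difference of 1.41 ± 0.28 (adjusted p = 0.000153) from untreated.

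Of 33 barrier lipid genes 25 rose and 4 fell with IL-13, with a median of 0.62, and 26 rose and 4 fell untreated, with a median of 0.95. Over all genes 45.1% rose and 20.9% fell with IL-13, and 33.6% and 35.8% untreated. Against untreated D11, 4 were higher and 14 lower, where 39.2% of all genes were higher and 8.49% lower. Without mitochondrially encoded transcripts 15 rose and 9 fell with IL-13. Without IL-13 library 1, 7 were higher and 15 lower than untreated. SULT2B1, which sulfates cholesterol, rose by 3.12 ± 0.19 with IL-13 and 3.13 ± 0.17 untreated. SDR9C7, a dehydrogenase of the lipid envelope, stood at 7.9, 12.6 and 17.5 TPM with IL-13, 39.5, 44.7 and 58.4 TPM untreated and 0, 3.1 and 5.2 TPM at D3, with rises of 2.46 and 4.21 and no overlap. FADS2 and ELOVL6, a desaturase and an elongase of fatty acids, fell, with changes of -2.04 and -1.01 with IL-13.

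Of 22 genes of the unfolded protein response and the integrated stress response 17 rose and 1 fell with IL-13, with a median of 1.58, and 15 rose and 2 fell untreated, with a median of 1.15. Over all genes 45.1% rose and 20.9% fell with IL-13, and 33.6% and 35.8% untreated. Between both kinds of D11 spheroid limma called 0 of the 22, with 1, a lower one, at an unadjusted p under 0.05, while 4 were lower by median of ratios and 6 were higher without IL-13 library 1. CHAC1, a target of ATF4 that degrades glutathione, stood at 51.9, 162 and 198 TPM with IL-13, 35.9, 132 and 176 TPM untreated and 2.3, 5.8 and 149 TPM at D3, and DDIT3, the stress factor CHOP, at 21.7, 69.5 and 97.2 TPM with IL-13, 15.9, 34.7 and 54.1 TPM untreated and 1.5, 2.6 and 48.6 TPM at D3. In both, D3 libraries 4 and 5 lay within the D11 range. They held 135.8 and 148.6 TPM of CHAC1 and 42.3 and 48.6 TPM of DDIT3, against at most 6.8 and 4.9 TPM in the other D3 libraries. The rises with IL-13 of CHAC1 and DDIT3 were 3.98 ± 0.83 (adjusted p = 0.000123) and 3.68 ± 0.70 (adjusted p = 3.63e-05). The 1 fall was SDF2L1, an endoplasmic reticulum protein, at -0.38 ± 0.15 (adjusted p = 0.0329), not called without IL-13 library 1 or D3 library 8 or with either batch alone. Without mitochondrially encoded transcripts 10 of the list rose and 5 fell with IL-13, where 1841 of all genes rose and 6570 fell.

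The remaining lists were counted only, and of all genes 45.1% rose and 20.9% fell with IL-13. With IL-13, 24 of 34 hypoxia and glycolysis genes rose and 2 fell (median 0.95), 3 of 25 cholesterol biosynthesis genes rose and 16 fell (-0.49), 5 of 17 YAP and SRF targets rose and 10 fell (-0.22), and 11 of 22 Notch pathway genes rose and 4 fell (0.26, but -0.16 without mitochondrially encoded transcripts). Untreated, the medians were 1.30, -0.36, -0.22 and 0.25 in the same order. Leaving out mitochondrially encoded transcripts gave 20 rises and 10 falls for hypoxia and glycolysis, 5 and 10 for the Notch pathway, 1 rise for cholesterol biosynthesis and 3 for YAP and SRF targets. Over all genes that scaling gave 1841 rises and 6570 falls, with a median of -0.33. Of 13 mitochondrially encoded transcripts 12 fell in each kind of D11 spheroid. Of the 12 squamous identity genes 9 rose and 2 fell with IL-13, with a median of 1.11, and 4 fell without mitochondrially encoded transcripts.

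**Figure D5:**
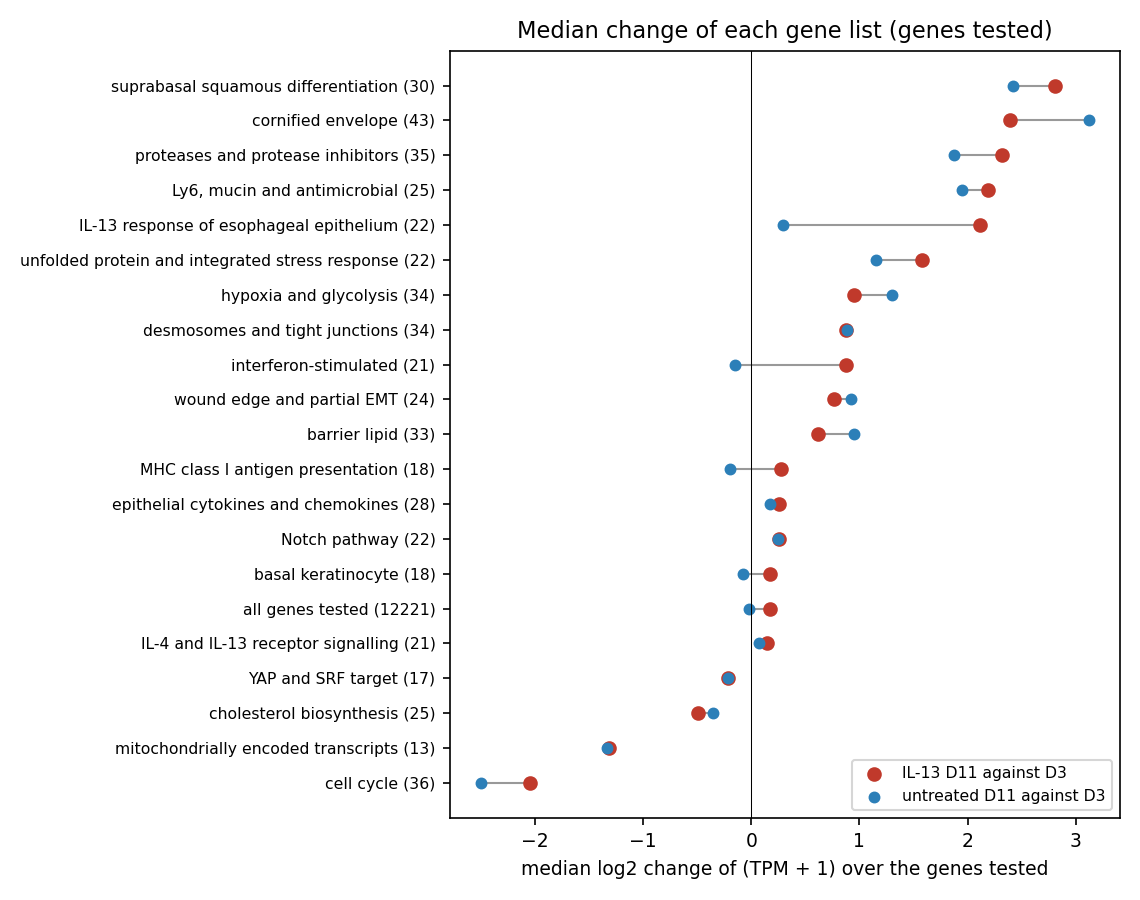
Median log2 change of (TPM + 1) of each gene list against D3 in IL-13 D11 (red) and untreated D11 (blue), with the number of genes tested in brackets; the row of all genes tested gives the background of 0.17 and -0.02. The IL-13 response list shows a wide gap between the points, 2.11 with IL-13 and 0.30 untreated, and the interferon-stimulated list lies at 0.87 and -0.15.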

How the data were processed

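Per the labels, total RNA of EPC2 monolayers and spheroids was sequenced. The authors deposited 1 table of TPM for 19345 symbols in 32 libraries, 10 of them monolayers that entered the fit but no comparison. The submitters' processing notes name the build hg38, while for the aligner, quantifier and annotation the version and name were not given in the sources used here. The table holds no read counts, so depth is unknown and no counting error can be given. The 6 IL-13 columns could be matched to their group but not to single samples, so each carried the group's batch share, 1 of 6 in batch 2.

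Values were tested as log2(TPM + 1) with limma 3.58.1 (R 4.3.3), using an intensity trend, group and batch terms and all 32 libraries, over the 12221 genes reaching 1 TPM in 6 or more libraries, with Benjamini-Hochberg adjustment over all of them and a threshold of 0.05. Every adjusted p is limma's. A gene could pass the filter through a single group in which it was high. Among the D11 and D3 groups, CDH26 and DPP4 reached 1 TPM with IL-13 only. A maturation gene was called between untreated D11 and D3 with a change of at least 1 on the log2 scale. It was kept where IL-13 D11 was called against D3 in the same direction, and stayed where IL-13 D11 was not called against D3, with a 95% interval within -1 to 1, but was called against untreated D11. Genes named for a class had a group median of at least 5 TPM and were the 4 to 6 largest of their class and direction that held that class under both other scalings. Also named were members of gene families and receptors chosen by name, and in each list the largest rises and falls with IL-13. Of the genes so named, 1 is not reported here. Members and lists were chosen with earlier results of these data known.

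In data simulated for IL-13 D11 against D3 (12221 genes), changes of 0.5, 1 and 2 on the log2 scale were found for 55.9%, 93.9% and 93.9% of changed genes, with 4 calls among 12021 unchanged genes. Replicate libraries correlated at 0.962 to 0.994 and at most 2.80% of their values were equal, so none was counted as a duplicate. Sequences, gene names (18162 of 19345 symbols matched) and coordinates came from RefSeq and GENCODE tables. Tables and plots used Python 3.11.15, pandas 2.3.3 and matplotlib 3.10.9. Alternatives changed the scaling, pseudocount, filter, batch term, library weights, folds and libraries.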

Additional observations from a re-analysis of the deposited data

Results flagged for a closer look

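Of 284 sets of values tested (1 gene in 1 group of 6 to 9 libraries, and the place of each library between D3 and untreated D11), 40 held 1 library set apart from the rest of its group by most of the group's range. Chance gives about 1 in 20. IL-13 library 1 was that library in 34 of them. On the line from D3 at 0 to untreated D11 at 1 it lay at 0.946, against 0.699 to 0.736 for the other IL-13 libraries. It was below the other 5 in 28 genes and above them in 5. Of the genes higher with IL-13 than without, library 1 gave, in TPM, 34.7 for MUC1, 100.1 for KRT13, 6.1 for ANO1, 13.7 for RASL11B, 1.9 for CDH26, 117.8 for CISH, 52.3 for TNFAIP6, 23.1 for IL36A, 4.6 for DPP4 and 1.4 for SERPINB10. For cell cycle genes it gave 0.8 for MKI67 and 3.1 for CDC20. For interferon and antigen presentation genes it gave 10.9 for APOL6, 8.1 for IFIT5, 5.3 for OAS3, 370.1 for HLA-C and 13 for TAP2. The other genes in which it was lowest had 51.9 for CHAC1, 3.9 for CLDN5, 67.9 for CLDN7, 4.6 for FADS2, 19.2 for MSRB1, 0 for PIGW, 6.4 for PRODH, 15.8 for SDF2L1, 19.9 for STAT6, 21.8 for TNC and 14.4 for TP63 (TPM). It was highest in 163.1 TPM for FGFBP1, 1064.1 TPM for HLA-E, 19.2 TPM for LCE1F, 361.2 TPM for SPINK7 and 3 TPM for USP2. Its MKI67, KRT13, MUC1, LCE1F, SPINK7 and USP2 thus stood nearer to the untreated libraries than those of the other IL-13 libraries did, and its HLA-E farther from them. Some of these genes also split the untreated libraries by batch. In untreated libraries 4, 6 and 7, labelled batch 2, CHAC1 stood at 35.9 to 56.9 TPM and CLDN7 at 28 to 39.8 TPM. In those of batch 1 they stood at 132.4 to 175.7 and 54.2 to 76.7 TPM. For MKI67 and FGFBP1 both batches overlapped. The batch of library 1 is unknown, so batch and response to IL-13 cannot be told apart. What sets library 1 apart was not tested.

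The 6 others were spread over the groups. IL-13 library 4 had 1.4 TPM of NGFR, and IL-13 library 6 had 2.8 TPM of S100A3, which was listed at 0 in the other 5. Untreated library 5 had 27.4 TPM of CISH and 121.1 TPM of IL1RN, both lowest of its group. D3 library 6 had 6.7 TPM of DEPP1 and D3 library 1 had 18.1 TPM of IFIT5, both highest of their group.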

How the results depend on the processing

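TPM is a share of each library, so its scaling moves every gene. Without mitochondrially encoded transcripts 1841 genes were higher and 6570 lower in IL-13 D11 than in D3, 1663 were higher and 8018 lower in untreated D11 than in D3, 3167 maturation genes were kept and 61 changed with IL-13 only. By median of ratios 3930 genes were lower in IL-13 D11 than in D3, and 2348 were higher and 2521 lower than in untreated D11. Under quantile normalization these counts were 4503, 2320 and 2502. With D3 and untreated libraries of batch 1 alone, 48 genes went the other way, 2245 were higher in IL-13 than in untreated D11 and 2733 were lower in untreated D11 than in D3. With batch 2 alone, 156 went the other way, 438 stayed and 1514 were lower in IL-13 D11 than in D3. A pseudocount of 5 gave 943 kept, 31 that stayed, 41 that went the other way and 52 with IL-13 only, and one of 0.1 gave 191 that stayed. Maturation set at 1.5-fold gave 3526, 516, 222 and 390 in the same order, and at 4-fold 484, 5, 20 and 19. With the D3 level held to 1.5-fold, 50 stayed. Leaving out 1 IL-13 library at a time gave 76 to 154 genes that went the other way, and leaving out IL-13 library 1 with D3 libraries 4 and 7, an alternative chosen after seeing the data, gave 152.

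Some changes of named genes turned. Without mitochondrially encoded transcripts the untreated changes became -0.30 for CDH3, -0.41 for HLA-C, -0.28 for IL4R, -0.080 for INHBA and -0.27 for SOCS1, and the IL-13 changes -0.44 for IL4R and -0.34 for TP63. Under quantile normalization HLA-C had -0.30 untreated, KRT14 0.84 with IL-13 and 0.67 untreated, and KRT5 0.037 and TP63 -0.011 with IL-13. Apart from what the construction of each alternative shows, the cause was not tested. Of 13254 values under alternatives, counts of classes and lists among them, 12851 were rated the same. A gene was so rated where call and sign were kept, or where the sign turned without a call in either setting. A count was so rated where it was equal or within 1.5-fold. The rating of a gene takes no account of the size of its change. Genes named for a class had to hold it under both other scalings, so their ratings there were largely fixed in advance. Many alternatives left out a single library and shared all others. The number rated the same is thus no measure of how firm the results are.

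The untreated D11 and D3 libraries share numbers 1 to 7 in the labels. With the number as a replicate block, 3757 genes were higher and 4010 lower in untreated D11, against 3916 and 4173 in the same 14 libraries without it. After the group mean of each gene was taken off, same-numbered libraries correlated at -0.159 to 0.164, so the numbers were not taken as pairs. No paired analysis was possible because the IL-13 columns carry no numbers of the labels.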
